A study of Rattus norvegicus with 6 samples.

Results

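A set of well known interferon-stimulated antiviral genes was followed in cultured neonatal rat cardiac fibroblasts (NRCFs). The set was drawn up by gene symbol and holds 50 genes, ordered here by role. Of these, 49 had a row in the count tables, and 47 had 10 or more counts in at least 3 libraries, out of 13024 genes so kept and 21857 rows in all. Xaf1 has no row and is not analysed here. Oas3 and Phf11 missed the count minimum.

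The libraries came from hearts of rats no more than 3 days old, and the series design names healthy Sprague-Dawley animals while the strain label reads "Noway". The genotype label WT was carried by 3 libraries, which made up the Vector group and received the empty plasmid. The other 3 carried the label FTO overexpression, for cells given a plasmid with rat FTO, an RNA demethylase that removes N6-methyladenosine. Both groups therefore went through plasmid transfection, and no untransfected cells are among the 6 libraries. The labels do not say whether the libraries of a group came from separate cultures or animals, so p-values measure the spread between these libraries only.

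Interferons are secreted cytokines that bind cell surface receptors and, through Janus kinases, activate the STAT and IRF factors. These factors bind the interferon-stimulated response element (ISRE) and switch on a large set of genes whose products block virus entry, sense or destroy foreign RNA, stop its translation or prevent the release of particles. Fibroblasts respond to interferon as most nucleated cells do, and the same genes also rise when foreign nucleic acid is sensed inside a cell.

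Total counts ran from 13178952 to 17857999 per library, so that 3 counts were worth between 0.168 and 0.227 counts scaled to library size (CPM). Fto itself was at 87.8, 89.7 and 87.4 CPM in the Vector libraries and at 93.2, 90.8 and 92.9 CPM in those labelled FTO. This difference did not pass the test (log2 fold change 0.06, SE 0.0469, edgeR adjusted p = 0.239), so the second group is called here by its label. All 7 fibroblast markers on the list were detected, with summed levels of 14344 to 14454 CPM in Vector and 11822 to 12152 CPM in the libraries labelled FTO, where 4 of the 7 were higher and 3 lower. The sum joins large opposite changes. Mean Dcn went from 47.0 CPM in Vector to 5610 CPM, and mean Col3a1 from 10698 to 3338 CPM. Itgam, one of the macrophage markers on the list, had no row. The summed level of the other 7 macrophage markers went from between 491 and 506 CPM to between 127 and 144 CPM, and all 7 were lower. Cardiomyocyte markers summed to 1018 to 1042 CPM in Vector and to 1272 to 1333 CPM in the other group, with 3 of 4 higher and 1 lower, and endothelial markers to 18.8 to 19.3 and 42.7 to 43.9 CPM, with 3 of 4 higher. None of the 5 lymphocyte markers had more than 3 counts in any library. Beside these marker counts, 33.1% of all genes tested were called higher and 32.6% lower.

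The promoters of 6 of the higher genes and of both lower genes are shown first, so that matches to the ISRE can be read directly. They were chosen after the values were seen. All 6 higher genes shown hold a match, while other higher genes, among them Mx1 and Oasl, held none. Whether any match is bound or active was not tested. Each line gives the 150 bases before the annotated start in the direction of transcription, from RefSeq on the build GRCr8. Capitals mark the ISRE core searched for, which is 2 copies of GAAA separated by 2 bases, on either strand. Overlapping matches run together.
Ifit3, chr1:241527176-241527325, plus strand: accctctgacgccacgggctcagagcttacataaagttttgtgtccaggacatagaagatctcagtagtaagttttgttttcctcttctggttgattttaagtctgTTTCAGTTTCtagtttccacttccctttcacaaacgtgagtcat
Oas1a, chr12:41330316-41330465, plus strand: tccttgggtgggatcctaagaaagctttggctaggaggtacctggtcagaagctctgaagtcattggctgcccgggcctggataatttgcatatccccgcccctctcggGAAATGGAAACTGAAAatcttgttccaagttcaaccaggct
Oas1b, chr12:41395853-41396002, minus strand: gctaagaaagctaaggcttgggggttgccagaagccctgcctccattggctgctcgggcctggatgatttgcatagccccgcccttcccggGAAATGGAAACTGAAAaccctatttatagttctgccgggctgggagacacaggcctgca
Bst2, chr16:18254968-18255117, minus strand: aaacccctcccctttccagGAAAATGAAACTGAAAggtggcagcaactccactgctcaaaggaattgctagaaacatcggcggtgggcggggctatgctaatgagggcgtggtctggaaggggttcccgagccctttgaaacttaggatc
Ifi44l, chr2:243328573-243328722, plus strand: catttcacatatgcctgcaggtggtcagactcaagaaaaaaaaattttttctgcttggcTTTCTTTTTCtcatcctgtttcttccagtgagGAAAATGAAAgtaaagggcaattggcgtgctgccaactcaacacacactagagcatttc
Ddx60, chr16:33208840-33208989, minus strand: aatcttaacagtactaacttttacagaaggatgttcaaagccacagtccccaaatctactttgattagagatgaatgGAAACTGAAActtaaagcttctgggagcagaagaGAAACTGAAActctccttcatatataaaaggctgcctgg
Epsti1, chr15:59693251-59693400, plus strand: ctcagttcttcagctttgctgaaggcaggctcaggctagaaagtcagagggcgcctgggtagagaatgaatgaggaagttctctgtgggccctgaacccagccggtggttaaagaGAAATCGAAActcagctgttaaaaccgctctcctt
Apobec1, chr4:157487602-157487751, minus strand: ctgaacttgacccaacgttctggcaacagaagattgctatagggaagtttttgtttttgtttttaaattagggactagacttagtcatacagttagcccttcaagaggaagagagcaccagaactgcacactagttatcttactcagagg

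In Oas1a, Oas1b and Bst2 a pair of matches overlapped in 1 run, and in Ifi44l and Ddx60 the matches stood apart. Epsti1, which was lower in the libraries labelled FTO, held a match at position -35 from the start, while Apobec1, the other lower gene, held none in its window. RefSeq windows of 250 bases before to 50 after the start were found for 39 of the 50 genes. Of these 39, 23 held an ISRE match (59.0%), against 3.77% of all 27457 windows and 3.05% of the 9731 windows of genes kept in these libraries. The genes had been listed as interferon-stimulated, so this share describes the list. The gamma-activated site, searched as TTCNNNGAA, which reads the same way on both strands and may overlap an ISRE match, was found in 7 of the 39 (17.9%), against 8.68% of all windows, and 6 of the 7 also held the ISRE. The first match began before the annotated start in 22 of the 23 genes, and after it in Dtx3l.

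The changes of genes with and without a match covered similar ranges. The 21 tested genes with a match had log2 fold changes from -2.59 to 9.36 with a median of 2.62, and the 15 tested genes whose window held none ran from -2.84 to 8.60 with a median of 2.31. Mx1 and Oasl were among those without a match in this window. The Oas1a and Oas1b windows were alike at 235 bases, with 46 mismatches and 38 gap positions in their alignment, an identity of 83.6% over the aligned bases.

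**Figure D1:**
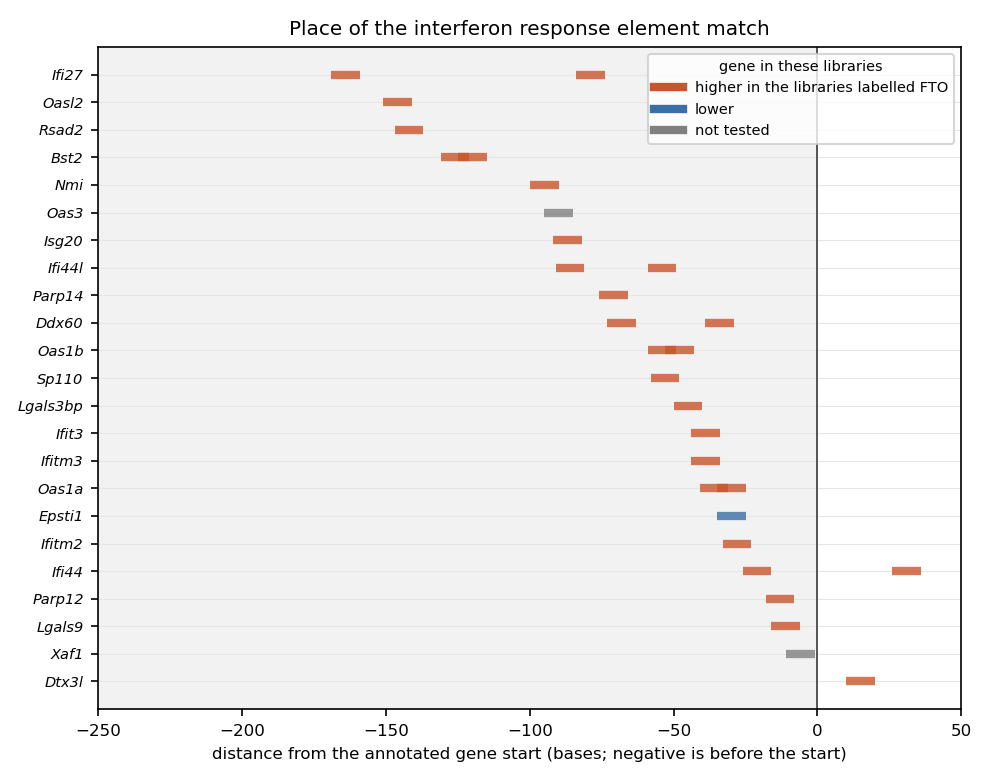
Place of each ISRE match in the RefSeq promoter windows of the 23 genes that held one, as the distance in bases from the annotated start, with the shaded area before it. Orange bars are genes higher in the libraries labelled FTO, the blue bar is Epsti1, and grey bars are Oas3 and Xaf1, which were not tested. All genes but Dtx3l had their first match before the start.

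To determine how far the antiviral genes differed between the groups, all 13024 genes were fitted together and tested with the quasi-likelihood F-test of edgeR. Compared with the Vector group, 45 of the 47 kept genes were higher in the libraries labelled FTO, and 2, Apobec1 and Epsti1, were lower. Over all genes kept, 33.1% were called higher and 32.6% lower, so these libraries differed at a large part of the transcriptome. The difference was at least 2-fold in 44 of the 45, against 10.4% of all genes tested that were called higher by at least 2-fold. Both lower genes fell at least 2-fold, as did 9.29% of all genes tested. Every library labelled FTO lay above every Vector library in 45 genes and below in 2, against 35.4% and 34.7% of all genes. These counts include 12 genes that reached the count minimum only with the libraries labelled FTO, which favours a higher level there.

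Among the 47, there were 12, namely Ifit1, Ifit3, Mx1, Mx2, Oas1a, Oas2, Oasl, Rsad2, Usp18, Ifi44l, Rtp4 and Ddx60, that had fewer than 10 counts in at least 1 Vector library and were kept only through the libraries where they were high. The filter thus favoured a higher level in the libraries labelled FTO for these 12, which are described below by their values. The other 35 did not need the second group to be kept. Of these, 33 were higher and 2 lower, against 31.5% called higher among the 12348 genes with 10 or more counts in each Vector library. Their median log2 fold change was 2.14, beside -0.02 over those 12348 genes.

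The share of all counted reads that fell in the 49 rows of the set was 0.183%, 0.179% and 0.181% in the Vector libraries and 1.06%, 1.02% and 1.01% in those labelled FTO. This amounts to 0.181% ± 0.00187 and 1.03% ± 0.0246 (SD, n = 3). The replicates of each group lay close together on this measure, and the groups did not overlap.

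**Figure D2:**
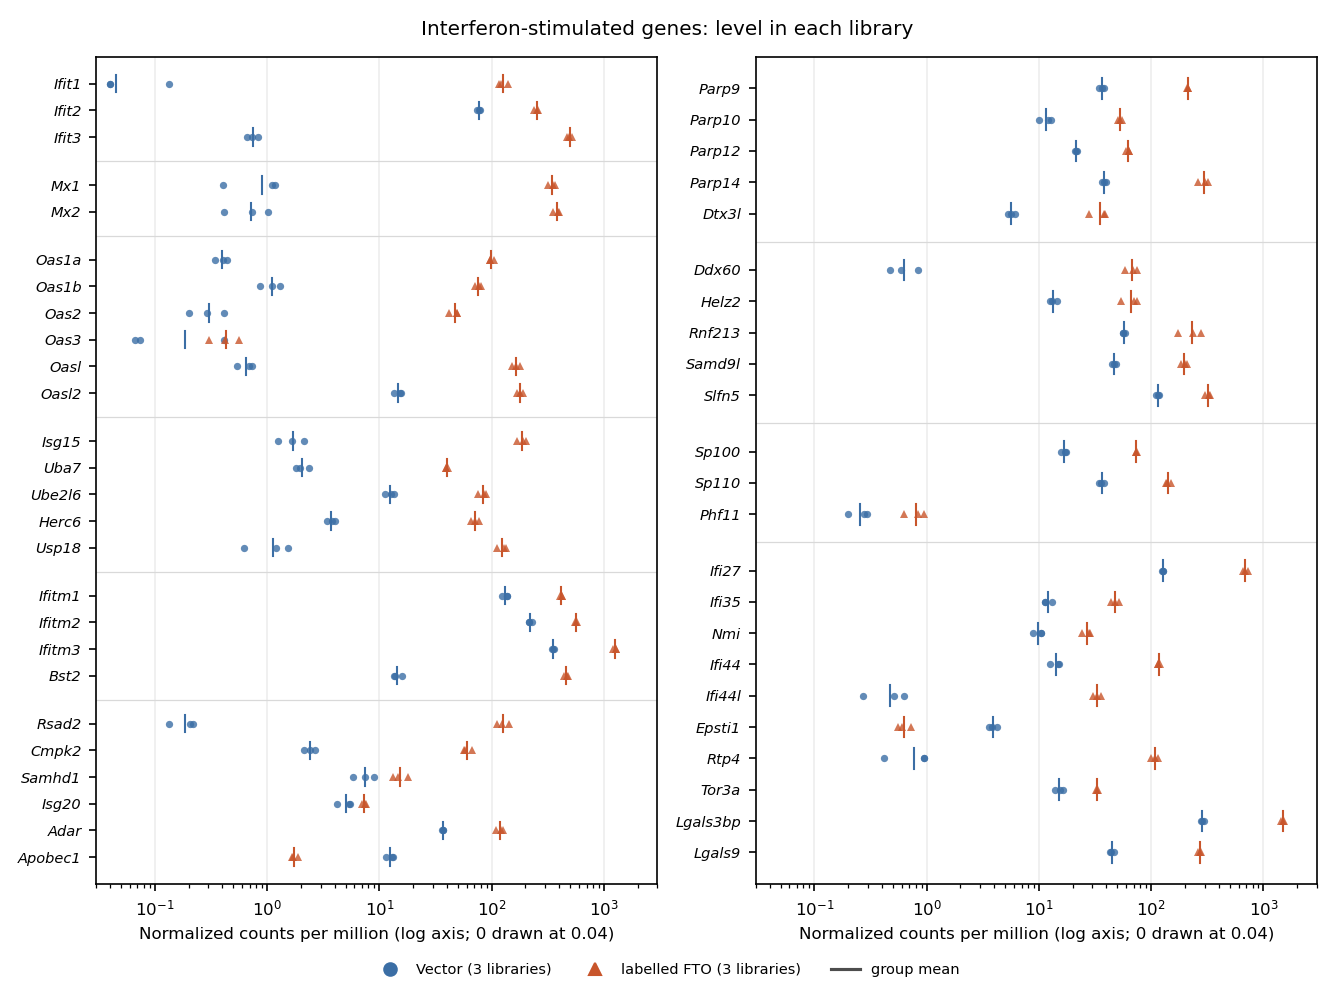
Level of the 49 genes with a row in each library, in library-size-scaled counts (CPM) on a log axis, with blue circles for the 3 Vector libraries, orange triangles for the 3 libraries labelled FTO and short lines for the group means. Rows are grouped by role, and the triangles lie to the right of the circles in every kept gene but Apobec1 and Epsti1.

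The IFIT proteins bind foreign RNA through tetratricopeptide repeats and keep it from being translated. All 3 were higher. Ifit2, which did not need the libraries labelled FTO to be kept, had an edgeR adjusted p of 9.03e-14. Ifit1, which recognises RNA whose cap lacks methylation, was at 0, 0.134 and 0 CPM in Vector and at 139, 117 and 121 CPM in the libraries labelled FTO. These values rest on 2 counts in all Vector libraries together against 5685, a ratio of 2693 per library size with a 95% counting interval of 745 to 22244. Such ratios of summed counts are given wherever their counting interval was wider than the fitted one, which was so in 19 of the 47 genes. Ifit1 was thus nearly silent in Vector and present in every library labelled FTO. Ifit3, which stabilises Ifit1 on RNA, was at 0.658, 0.738 and 0.831 CPM in Vector against 520, 490 and 474 CPM, a ratio of 663 (95% counting interval 469 to 969). Ifit2 was already expressed in Vector, at 74.0, 77.8 and 78.0 CPM, and reached 261, 239 and 254 CPM. Its fold of 3.28 (95% interval 3.05 to 3.53) was the smallest of the family, and the groups did not overlap in any of the 3 genes. In the GRCr8 annotation Ifit1 overlaps Ifit1bl, a family member off the list, so reads of this pair could be split between them.

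The Mx proteins are dynamin-like GTPases that trap the nucleocapsids of RNA viruses. Mx1 was at 1.17, 0.403 and 1.11 CPM in Vector and at 369, 318 and 351 CPM in the other group, a ratio of 393 (95% counting interval 286 to 556). Mx2 was at 1.02, 0.738 and 0.415 CPM against 395, 389 and 354 CPM, a ratio of 523 (95% counting interval 369 to 771). Both were close to the limit of detection in all 3 Vector libraries and far above it in the others. They were kept only through those others, so no p-value is given. The 2 genes are similar in sequence, and how reads that match both were counted is not given in the sources used here.

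Active oligoadenylate synthetases sense double-stranded RNA and make the messenger that turns on RNase L, which cuts RNA. Of the 6 listed genes of this family, 5 were kept and all 5 were higher. Oasl, whose product carries ubiquitin-like domains, had the largest fitted change. It went from 0.732, 0.537 and 0.692 CPM to 179, 152 and 163 CPM, a ratio of 254 (95% counting interval 175 to 382). Oasl2, its neighbour on the chromosome, showed the smallest, from 15.4, 15.2 and 13.5 CPM to 191, 180 and 169 CPM, 12.2-fold (95% interval 11.0 to 13.6). Oas1a went from 0.396 ± 0.0468 to 99.4 ± 4.26 CPM (SD, n = 3), a ratio of 251 with a counting interval of 157 to 431. Oas2 went from 0.303 ± 0.107 to 47.0 ± 4.28 CPM, a ratio of 157 that rests on 13 Vector counts, with a counting interval of 91.4 to 294. The intervals of Oasl, Oas1a and Oas2 overlapped. Oas1b, known in mice for resistance to flaviviruses, went from 1.09 ± 0.221 to 76.3 ± 4.49 CPM, a ratio of 69.4 (95% counting interval 52.1 to 94.7). Oas1a and Oas1b belong to the same family, and how reads that match both were counted is not given in the sources used here. The edgeR adjusted p-values of Oas1b and Oasl2, which did not need the libraries labelled FTO to be kept, were 8.73e-16 and 8.10e-16. Oas3 had counts of 1, 1 and 6 in Vector and 6, 4 and 10 in the libraries labelled FTO, groups that overlapped. Without a count filter its log2 fold change was 1.20 with an edgeR adjusted p of 0.174, so a difference was not detectable at this depth. Oas2 is its immediate neighbour in the annotation.

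ISG15 is a ubiquitin-like modifier that is joined to newly made proteins by its own chain of enzymes. The modifier, its activating enzyme Uba7, its conjugating enzyme Ube2l6, the ligase Herc6 and the protease Usp18 were all higher. Apart from Usp18, which was kept only through the libraries where it was high, their edgeR adjusted p was at most 2.27e-13. Isg15 rose from 1.69 ± 0.451 to 186 ± 17.0 CPM, a ratio of 109 (95% counting interval 86.5 to 139). Usp18, which removes ISG15 and also dampens signalling at the type I receptor, had the largest fitted change. It was at 1.54, 1.21 and 0.623 CPM in Vector and at 133, 129 and 111 CPM in the libraries labelled FTO, a ratio of 110 (95% counting interval 83.2 to 150). The intervals of Isg15 and Usp18 overlapped. Uba7 went from 2.04 ± 0.281 to 39.7 ± 0.832 CPM, a ratio of 19.4 (95% counting interval 15.6 to 24.3), and Herc6 from 3.74 ± 0.322 to 71.5 ± 5.73 CPM, a ratio of 19.1 (16.3 to 22.6). Ube2l6 showed the smallest difference, from 12.7, 11.2 and 13.6 CPM to 88.4, 86.3 and 76.1 CPM, 6.68-fold (95% interval 5.89 to 7.57). Every step of the chain was therefore represented in both groups, at higher levels in the libraries labelled FTO.

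Ifitm1, Ifitm2 and Ifitm3 sit in cell and endosome membranes and hinder virus fusion, and Bst2, or tetherin, holds budding particles at the cell surface. All 4 were higher, with an edgeR adjusted p of at most 2.19e-13. Bst2 stood out in fold, from 13.5, 13.8 and 15.9 CPM to 470, 478 and 443 CPM, 32.3-fold (95% interval 29.4 to 35.5). The Ifitm genes were well expressed in Vector and changed by less. Ifitm3 went from 353 ± 6.34 to 1256 ± 42.2 CPM, 3.56-fold, and Ifitm1 from 133 ± 8.93 to 417 ± 10.8 CPM, 3.14-fold. Ifitm2 was at 230, 216 and 217 CPM against 562, 571 and 556 CPM, 2.55-fold (95% interval 2.40 to 2.71). These 3 genes lie next to each other in the GRCr8 annotation and are similar in sequence, so their counts are uncertain to the extent that shared reads were split.

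Another 6 genes encode enzymes that act on nucleotides or nucleic acids, and genes of this group moved in both directions. Rsad2, or viperin, makes a chain-terminating nucleotide. It was at 0.219, 0.134 and 0.208 CPM in Vector and at 142, 112 and 123 CPM in the libraries labelled FTO. The 8 Vector counts against 5717 gave a ratio of 677 per library size (95% counting interval 343 to 1569). Its neighbour in the annotation, Cmpk2, a mitochondrial nucleotide kinase, rose from 2.41 ± 0.269 to 60.3 ± 5.54 CPM, a ratio of 24.9 (95% counting interval 20.5 to 30.6). Adar, which edits adenosine to inosine in double-stranded RNA, rose from 36.6 ± 0.198 to 119 ± 7.82 CPM, 3.25-fold. The remaining differences in this direction were small. Samhd1, which breaks down deoxynucleotides, went from 9.00, 5.77 and 7.41 CPM to 17.9, 13.1 and 14.6 CPM, 2.07-fold (edgeR adjusted p = 2.40e-05). The exonuclease Isg20 went from 5.49, 4.23 and 5.33 CPM to 7.65, 7.02 and 7.37 CPM. At 1.47-fold (95% interval 1.19 to 1.82, edgeR adjusted p = 0.00345) it was the only higher gene of the set under 2-fold.

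Apobec1, the cytidine deaminase that edits apolipoprotein B mRNA, was lower. It was at 13.1, 11.4 and 13.0 CPM in Vector and at 1.68, 1.89 and 1.68 CPM in the libraries labelled FTO, a level 7.17-fold lower (95% counting interval 5.66 to 9.21), with a log2 fold change of -2.84 (edgeR adjusted p = 2.46e-10). Epsti1, or epithelial stromal interaction 1, was the other lower gene. It went from 4.24, 3.62 and 3.81 CPM to 0.561, 0.604 and 0.726 CPM, 6.08-fold lower (95% counting interval 4.08 to 9.36), with a log2 fold change of -2.59 (edgeR adjusted p = 2.66e-07). In both genes each Vector library lay well above every library labelled FTO. The 7 macrophage markers fell in the same libraries. Csf1r, the receptor that macrophages depend on, was at 142 ± 2.27 and 9.18 ± 1.29 CPM, and C1qb and C1qc were at 0.140 CPM or less in every library labelled FTO. Other markers fell by less, with Cd14 at 99.5 ± 2.37 and 59.6 ± 2.97 CPM and Cd68 at 111 ± 3.42 and 51.0 ± 6.16 CPM. The part of macrophages in the lower Apobec1 and Epsti1 levels was not tested, and in bulk RNA fewer cells of a type cannot be told apart from less RNA per cell.

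**Figure D3:**
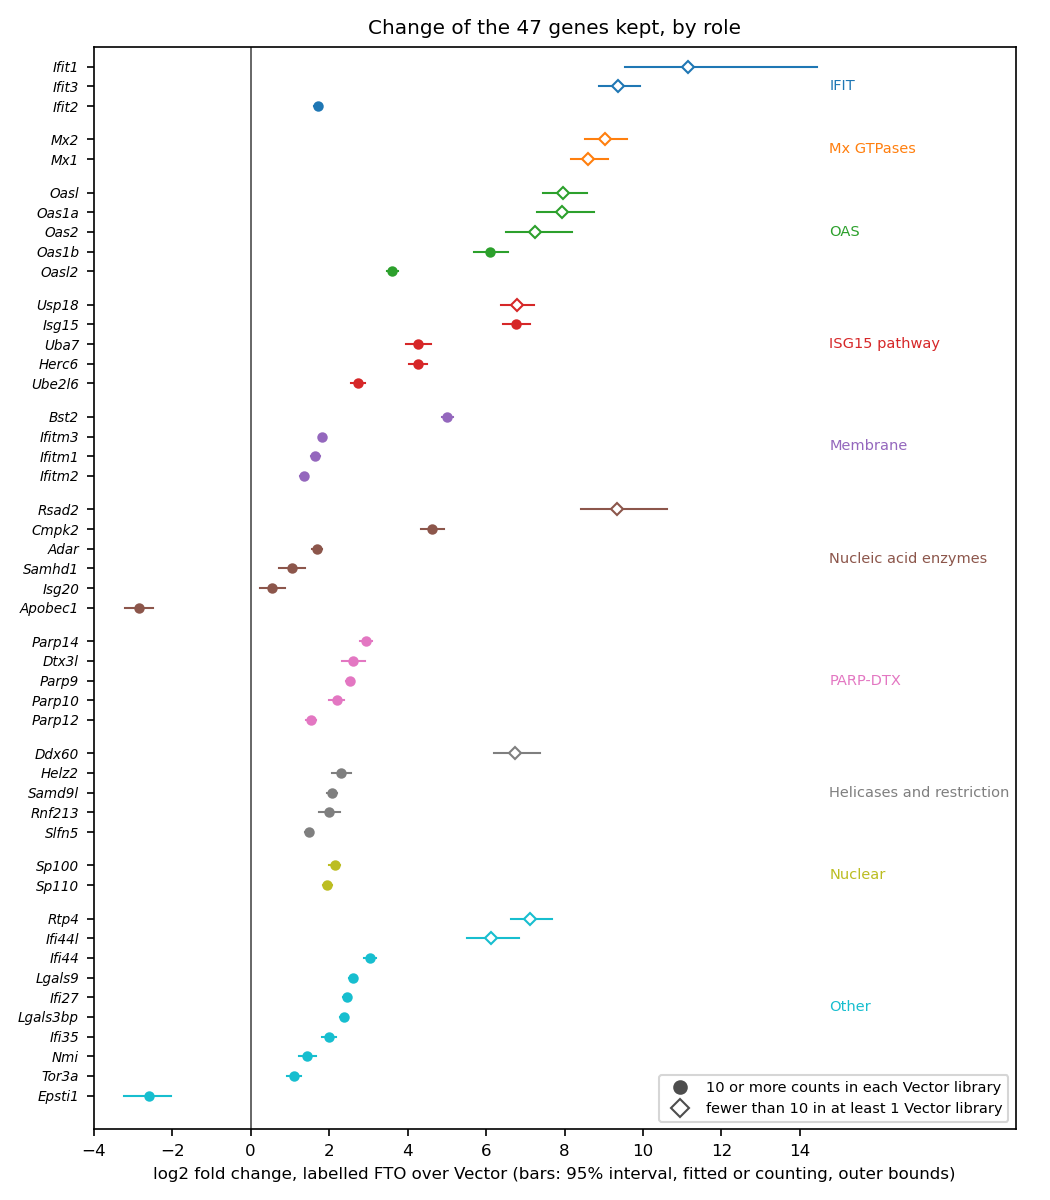
Fitted log2 fold change of the 47 genes kept, libraries labelled FTO over Vector, with colours for role groups and bars from the lower to the upper outer bound of the fitted and the counting 95% intervals. Filled circles had 10 or more counts in each Vector library and open diamonds had fewer in at least 1, so their position depends on few Vector counts. The points run from -2.84 for Apobec1 to 11.16 for Ifit1, and no interval crosses 0.

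ADP-ribosyltransferases of the PARP family and their partner Dtx3l, a ubiquitin ligase that works as a pair with Parp9, mark proteins with ADP-ribose or ubiquitin during antiviral responses. All 5 were higher, and their differences fell within a narrow range. Parp14 showed the largest, from 36.5, 39.5 and 38.3 CPM to 299, 260 and 322 CPM, 7.71-fold (95% interval 6.92 to 8.59). Parp12, which blocks translation of viral RNA, showed the smallest, from 21.8, 21.5 and 20.8 CPM to 63.8, 60.2 and 62.9 CPM, 2.91-fold (95% interval 2.65 to 3.20). Dtx3l rose 6.13-fold, from 5.69 ± 0.449 to 34.8 ± 6.06 CPM, and Parp9 5.79-fold, from 36.4 ± 1.94 to 211 ± 3.22 CPM. The intervals of these partners overlapped, at 5.01 to 7.50 and 5.36 to 6.25. Parp10 rose 4.56-fold, from 11.6 ± 1.47 to 52.9 ± 2.68 CPM. The highest edgeR adjusted p of the 5 was 1.47e-10. Parp9, Dtx3l and Parp14 are neighbours in the annotation, where Parp9 and Dtx3l overlap, so reads of those 2 could not be told apart if strand was not used in counting. Parp10 overlaps Plec and Parp12 overlaps Tbxas1 in the same annotation.

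The large helicases and restriction factors were also all higher. Ddx60, a helicase linked to RNA sensing, changed most, from 0.585, 0.470 and 0.831 CPM to 68.7, 58.3 and 74.5 CPM, a ratio of 108 (95% counting interval 74.3 to 165). Ddx60 overlaps Palldl1 in the annotation. Slfn5, a Schlafen family protein, changed least, from 111, 118 and 116 CPM to 330, 299 and 337 CPM, 2.80-fold (95% interval 2.59 to 3.02). Between them were Helz2, a helicase and nuclear receptor coactivator, at 4.96-fold, Samd9l, a restriction factor that curbs translation, at 4.22-fold, and Rnf213, a giant ubiquitin ligase, at 4.02-fold. Rnf213 spread most among the libraries labelled FTO, at 236, 172 and 278 CPM, a coefficient of variation (CV) of 23.2%. The median CV of the 47 genes in that group was 6.28%. Replicate 2 of the libraries labelled FTO was the lowest of its group for Rnf213 and also for Dtx3l, Helz2, Samhd1, Ddx60 and Parp14, whose CVs were between 10.7% and 17.4%. None of these spreads brought the groups to overlap, and the highest edgeR adjusted p among Helz2, Rnf213, Samd9l and Slfn5 was 1.12e-09.

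Sp100, a component of PML nuclear bodies, and its relative Sp110 were higher by close amounts. Sp100 went from 17.4, 15.8 and 17.0 CPM to 73.9, 74.7 and 73.1 CPM, 4.41-fold (95% interval 4.01 to 4.85). Sp110 went from 38.3, 34.6 and 36.0 CPM to 138, 149 and 136 CPM, 3.88-fold (95% interval 3.56 to 4.24). Their edgeR adjusted p-values were 1.72e-13 and 1.57e-13. Sp110 overlaps the related gene Sp140 in the annotation. Phf11, a PHD finger protein, had counts of 4, 3 and 4 in Vector and 9, 11 and 17 in the libraries labelled FTO. The ratio of its summed counts was 3.19 per library size (95% counting interval 1.59 to 6.93), and without a count filter its edgeR adjusted p was 0.0118.

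Of the other 11 genes, Xaf1 had no row, Epsti1 was lower as given above, and 9 were higher. Rtp4, a chaperone of membrane receptors that also restricts RNA viruses, changed most, from 0.951, 0.940 and 0.415 CPM to 116, 108 and 101 CPM, a ratio of 140 (95% counting interval 99.8 to 204). It overlaps Masp1 in the annotation. The neighbouring genes Ifi44 and Ifi44l, which act as feedback regulators of the response, were both higher. Ifi44 was at 14.2 ± 1.36 CPM in Vector and at 117 ± 3.09 CPM in the other group, 8.25-fold (95% interval 7.44 to 9.14). Ifi44l was at 0.468 ± 0.181 and 32.9 ± 2.57 CPM, a ratio of 70.3 (95% counting interval 45.4 to 115) that rests on 20 Vector counts. Lgals9, a galectin, rose 6.09-fold, and Lgals3bp, a secreted glycoprotein that binds galectins, 5.19-fold, from 285 ± 9.89 to 1479 ± 48.8 CPM. Ifi27, a small membrane protein, rose 5.45-fold, from 127 ± 1.79 to 691 ± 32.9 CPM. Ifi35 and Nmi, which form a complex with each other, rose 4.0-fold and 2.72-fold. Tor3a, an ATPase of the endoplasmic reticulum, changed least among the higher genes of this group, from 15.2 ± 1.26 to 32.9 ± 0.81 CPM, 2.16-fold. Among the tested genes of this group other than Rtp4 and Ifi44l, the highest edgeR adjusted p was that of Epsti1.

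**Figure D4:**
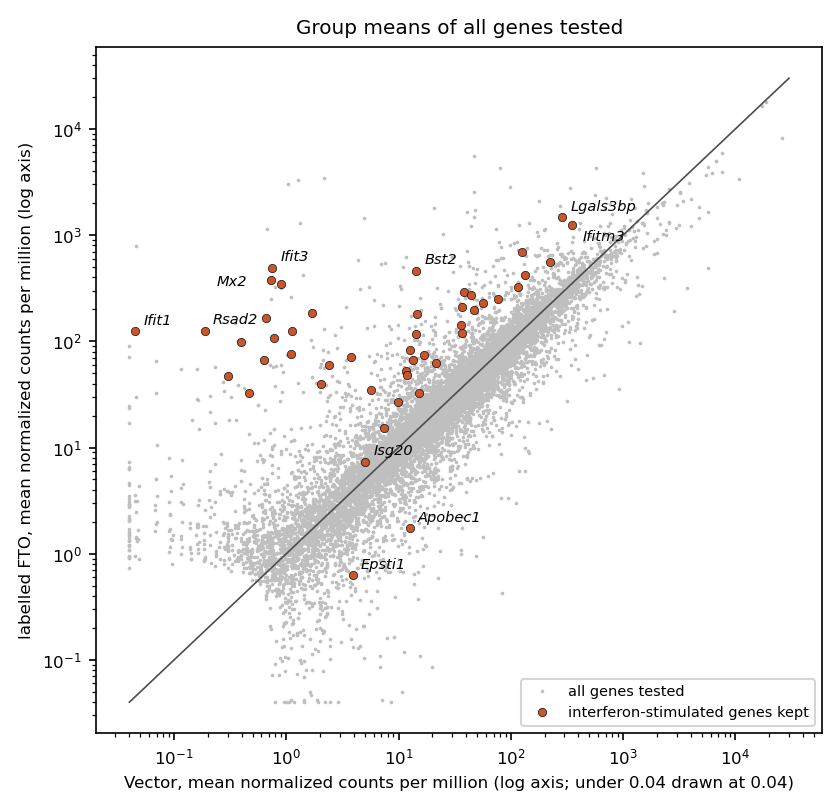
Mean level in CPM of the 13024 genes tested, Vector on the horizontal and libraries labelled FTO on the vertical log axis, with the 47 antiviral genes in orange and the line of equal levels. Ifit1, Rsad2, Ifit3 and Mx2 lie far above the line at low Vector levels, Isg20 just above it, and Apobec1 and Epsti1 below it.

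Genes of the interferon pathway upstream of these effectors were read next, from a list of 27. Of 25 with a row, 15 were tested, of which 12 were higher, 1 was lower and 2 were not called, where 33.1% of all genes tested were higher and 32.6% lower. Of 12 ligands listed, 10 had a row and 9 of these, among them Ifnb1 and Ifng, had no count in any of the 6 libraries. The tenth, Ifne, had 2, 0 and 0 counts in Vector and 1, 0 and 8 in the libraries labelled FTO. Among these 10, none exceeded 3 counts in any library except Ifne in 1.

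All 6 receptor chains were higher. The chains of the type I receptor, Ifnar1 and Ifnar2, had log2 fold changes of 1.16 (SE 0.0448) and 0.60 (SE 0.0696), and those of the type II receptor, Ifngr1 and Ifngr2, 1.80 (SE 0.0405) and 0.65 (SE 0.0615). Ifnlr1 of the type III receptor was at 1.48 (SE 0.0791) and its partner Il10rb at 0.25 (SE 0.0696), the smallest of the 6 (edgeR adjusted p = 0.00502). Among the kinases, Jak2 went from 94.4, 98.5 and 102 CPM to 814, 776 and 834 CPM, a log2 fold change of 3.04 (edgeR adjusted p = 6.71e-17). Jak1 and Tyk2, the kinases of the type I receptor, had log2 fold changes of -0.06 and -0.14, with edgeR adjusted p of 0.312 and 0.0981. Of the 3 kinases, Jak2 was thus the one that passed the test.

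Stat2 and Irf9, factors that act at the ISRE, were both higher. Stat2 rose from 65.0 ± 0.901 to 358 ± 15.6 CPM and Irf9 from 25.3 ± 1.74 to 96.9 ± 1.82 CPM. Their log2 fold changes were 2.46 and 1.94, with edgeR adjusted p of at most 3.45e-13. Irf7, the factor that amplifies type I interferon production, differed most of the list. It was at 5.85, 4.30 and 4.64 CPM in Vector and at 1483, 1468 and 1352 CPM in the libraries labelled FTO, a log2 fold change of 8.19 (edgeR adjusted p = 8.69e-19) and a ratio of 291 (95% counting interval 254 to 335). Irf1 rose by 0.97 on the log2 scale, and Irf3, which acts downstream of sensors of foreign nucleic acid, fell by 0.33 (edgeR adjusted p = 9.50e-05).

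To see how the rest of each gene family behaved, 64 relatives that are not on the list were read in the same fit. Of 56 with a row, 50 were tested, and 28 were higher, 11 lower and 11 not called, where 33.1% of all genes tested were higher and 32.6% lower. A rise of at least 2-fold was reached by 7 of the 50, where 10.4% of all genes reached it, and their log2 fold changes had a median of 0.28. The difference between the relatives and the antiviral genes was not tested. In the PARP family, 6 of 9 tested relatives were higher, none past the log2 fold change of 0.74 reached by Parp3, and Tnks, a tankyrase, fell by 1.19. The E1 enzyme Uba2, which serves the modifier SUMO, was at -0.03, and the dynamins Dnm1, Dnm2 and Dnm3 were at 0.84, -0.23 and 0.38, the last not called. Most relatives with enzymatic roles of this kind thus stayed under 2-fold.

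The relatives that rose at least 2-fold were Ifi27l2b at 4.36, Slfn2 at 3.01, Ifit1bl at 2.20, Herc1 at 1.59, Slfn13 at 1.56 and Dtx4 at 1.14 on the log2 scale, and Lgals5. Lgals5 had at most 1 count in each Vector library, and 2 counts against 64 gave a ratio of 30.3 (95% counting interval 8.06 to 256). Slfn2, a Schlafen protein that supports T cell quiescence, was at 44.0, 42.7 and 41.5 CPM in Vector and at 341, 354 and 338 CPM in the libraries labelled FTO. Its increase was larger than that of Slfn5 on the list, while that of Slfn13 (SE 0.0487) was within the error of Slfn5 at 1.48 (SE 0.0518). Adarb1, the second adenosine deaminase acting on RNA, went the other way from Adar. It was at 138, 148 and 144 CPM in Vector and at 18.7, 14.3 and 18.7 CPM in the other group, a log2 fold change of -3.05 (SE 0.0782, edgeR adjusted p = 2.55e-14). Of the APOBEC relatives, Apobec2 and Apobec3b were at 0.84 and 0.44, in the direction opposite to Apobec1.

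**Figure D5:**
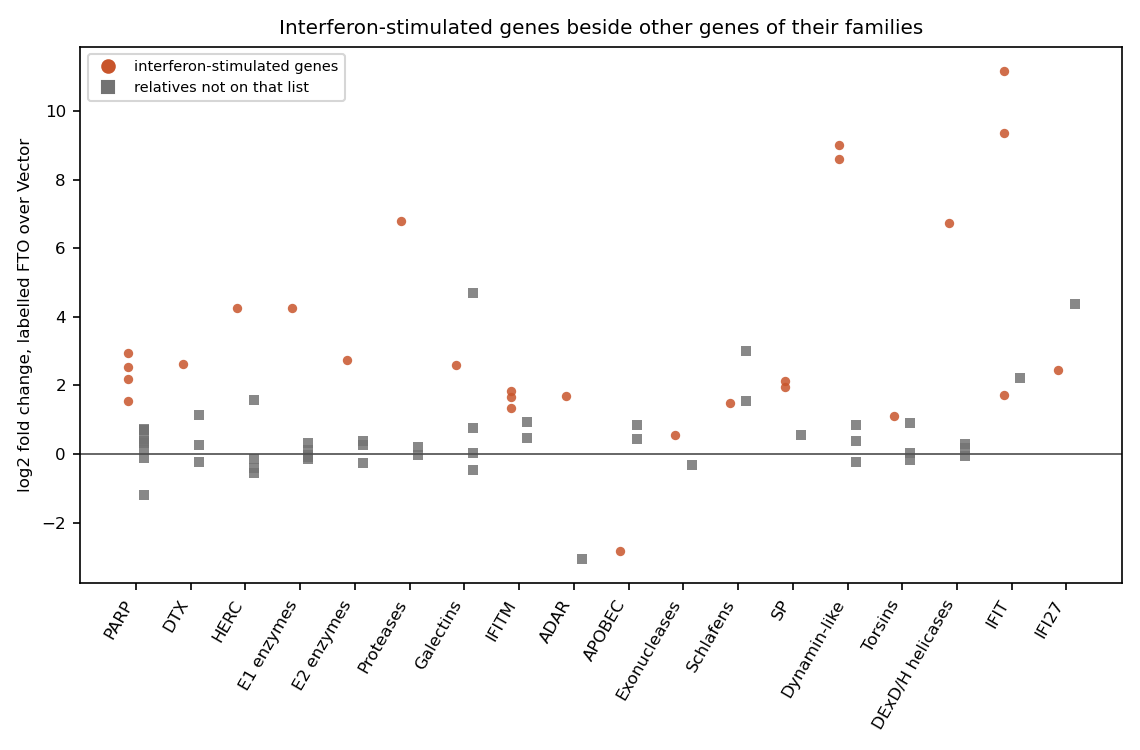
Log2 fold change, libraries labelled FTO over Vector, of the antiviral genes (orange circles) and of relatives not on that list (grey squares) in 18 gene families. In most families the circles lie above the squares, while Adarb1 and Apobec1 lie far below 0, and Ifi27l2b, Lgals5 and Slfn2 lie above the circles of their families.

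Within the libraries labelled FTO, replicate 1 was the highest for 25 of the 47 genes (53.2%) and the lowest for 4 (8.51%), beside 27.3% and 27.0% of all genes tested. Replicate 2 was lowest for 21 of the 47 and replicate 3 for 22. In all 47 genes the 2 groups still did not overlap. Of all genes tested, 35.4% had every library labelled FTO above every Vector library, and 34.7% had every one below. In Vector, replicate 1 was highest for 21 of the 47, replicate 2 for 11 and replicate 3 for 15.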

How the data were processed

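RNA-seq was performed on 6 NRCF libraries, 3 Vector and 3 labelled FTO, made with the NEBNext Ultra kit from total RNA. The deposited values are raw read counts, given for each gene symbol in a file per library. Per the submitters' processing notes reads were trimmed with Trimmomatic and the build was rn6. Aligner, counter, annotation, use of strand and treatment of multi-mapping reads are not given in the sources used here.

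Genes with 10 or more counts in at least 3 libraries were kept, which held 99.9% of the counts. Library sizes were adjusted by TMM (factors 0.995 to 1.006) and the groups compared by the two-sided quasi-likelihood test of edgeR 4.0.16 in R 4.3.3, with Benjamini-Hochberg adjustment over all 13024 genes and a threshold of 0.05. SE was the absolute log2 fold change over the root of F. Values are TMM-normalized CPM, and levels are not compared between genes. This SE can be too small far from no change, so where the exact 95% interval of the ratio of summed counts was wider than the fitted one (19 of the 47), or a gene missed the count minimum, that ratio and its counting interval are given. Counting intervals and floors cover counting error only, since there are no molecular identifiers.

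Genes, lists, motifs and tests were chosen with earlier results of these data known. Per-library values are given for genes with at most 3 counts in each Vector library, lower genes, and the largest and smallest change in each role group. Others named with them, among them Samhd1, Isg20, Rnf213 and the relatives, were chosen after seeing their values. The labels give no pairing, and same-numbered libraries were not treated as pairs in the main fit. The correlation of their deviations, -0.0761 to 0.0380, cannot settle whether they were paired, with 3 libraries per group. Replicates differed by more than sampling noise (chi-square per degree of freedom 1.58 to 8.38). Alternatives were DESeq2 1.42.0, limma-voom (limma 3.58.1), DESeq2 size factors, library size alone, no filter, filterByExpr, a mean of at least 10 counts, a replicate block, and leaving out each library. Tested on simulated counts, edgeR found 188 of 191 changed genes among 12617, with 19 false calls. Far fewer genes were changed there than the 8559 called in these libraries, so those rates may not hold here. Promoter windows and neighbours are from RefSeq (GRCr8), with the first listed window per gene, and are not tied to the build of the counts. Parp10, Samd9l, Oas2, Ifit1, Ifit2, Mx2, Usp18, Isg15, Ifitm1, Rtp4 and Adar had no window. A gene of the interferon pathway list is not reported here.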

Additional observations from a re-analysis of the deposited data

How the results depend on the processing

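Under the 14 alternatives, 45 higher genes became 40 to 46, the lowest where leaving out a library labelled FTO takes low genes below the count minimum, which needs 3 libraries. The count of lower genes stayed at 2 and that of higher genes among those with 10 or more counts in each Vector library at 33. The 643 fold changes computed for the 47 genes kept their direction and their side of the threshold, with a highest adjusted p of 0.0267. They include those of the 12 genes that needed libraries labelled FTO to be kept. The median log2 fold change of the 35 genes expressed in each Vector library, 2.14, ranged from 2.09 to 2.18 when each library was left out in turn, with 2.09 without Vector replicate 1 and without Vector replicate 2. Genes called in all ranged from 7631 to 9009 (8559 as reported), pathway genes from 13 to 15 and relatives from 31 to 39. With a replicate block 45 genes were higher and 2 lower, and 8430 genes were called in all. The median log2 fold change of all genes was 0.00163 in the main fit, 0.00947 with library size alone and 0.000515 with DESeq2 size factors. Depth limits Ifit1, Rsad2, Oas3, Phf11 and the ligands, whose Vector levels rest on a few counts, and batch or culture is not labelled.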
